A study of Mus musculus with 2 samples.

Results

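Tbx20 and 5 further T-box transcription factors of the developing heart, Tbx1, Tbx2, Tbx3, Tbx5 and Tbx18, were followed across sorted heart cells of mouse embryos at embryonic day 12.5. The members were taken by gene symbol, and all 14 array probe sets whose platform annotation named exactly 1 gene, that gene being a member, were read separately. They stand for 6 of the 18193 genes named on the array. RNA came from cells of the Tie2Cre lineage, and 1 array was hybridised with RNA of each genotype. The mutant genotype was Tie2Cre;Tbx20 loxP/-, with a floxed and a null Tbx20 allele, and the control genotype was Tie2Cre;Tbx20 +/loxP, with a wild-type and a floxed allele. Both genotypes carried the Cre transgene and a floxed allele, so control cells in which Cre had acted kept 1 working copy of Tbx20 and mutant cells none. Tie2Cre acts in endothelium, endocardium and their descendants, which include cushion mesenchyme, and also in blood cells. The sort collected live lineage cells that lacked CD41, CD45 and Ter119, which mark platelet precursors, leukocytes and red cells. The sources used here state neither how many embryos gave each RNA nor which exons the floxed allele removes.

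T-box factors share a DNA-binding domain, the T-box, that recognises elements with the core letters AGGTGT, and they act as activators, repressors or both. In the mouse heart, Tbx5 with its partners Nkx2-5 and Gata4 activates chamber genes, while Tbx2 and Tbx3 repress the same genes in the atrioventricular canal and the conduction system. Tbx20 is made in myocardium, endocardium and cushion mesenchyme and is needed for chambers and valves, and in mouse myocardium it holds Tbx2 in check. Tbx18 marks the epicardium, mural cells and the sinus horns, and Tbx1 marks pharyngeal mesoderm and the second heart field.

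RefSeq promoter windows on GRCm38.p6, which run from 250 bases before to 50 bases after the annotated gene start, were on hand for Tbx20, Tbx1 and Tbx18. The windows of Tbx20, the targeted gene, and of Tbx18, the member with the highest ratio, are printed so that the T-box letters in them can be seen. Both lie on the minus strand, Tbx20 at chr9:24774254-24774553 and Tbx18 at chr9:87731211-87731510. Capitals mark the 5 core letters GGTGT, searched on both strands. These 5 letters lie inside the 6-letter element AGGTGT, so every match of the longer element is also a match of the shorter.
Tbx20: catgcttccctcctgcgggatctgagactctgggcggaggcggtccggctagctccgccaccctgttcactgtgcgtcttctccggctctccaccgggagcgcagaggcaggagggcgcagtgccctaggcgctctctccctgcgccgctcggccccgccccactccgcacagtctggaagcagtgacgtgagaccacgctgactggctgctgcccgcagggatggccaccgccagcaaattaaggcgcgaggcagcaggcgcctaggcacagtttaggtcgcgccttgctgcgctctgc
Tbx18: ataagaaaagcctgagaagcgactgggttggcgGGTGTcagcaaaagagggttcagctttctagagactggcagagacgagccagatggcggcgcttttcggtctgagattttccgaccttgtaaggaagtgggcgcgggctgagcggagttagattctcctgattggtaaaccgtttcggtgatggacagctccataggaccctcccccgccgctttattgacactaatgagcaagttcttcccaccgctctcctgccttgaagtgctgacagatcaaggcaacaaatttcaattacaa
The Tbx20 window held neither set of letters. The Tbx18 window held GGTGT at position -217 from the gene start and no AGGTGT. Of the windows listed for Tbx1, one held AGGTGT at position -76 and the other held neither. Among all 32851 promoter windows of the same length, 13.7% held AGGTGT and 41.6% held GGTGT. A match is a description of these letters and not a binding site.

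The deposited values are MAS5 signals, a linear intensity per probe set that is scaled so that the trimmed mean is the same on both arrays. A signal was taken as above the floor when it exceeded the median of the non-control probe sets of its array, 82.4 on the mutant array and 91.3 on the control array, and a probe set is called measured where this held for both arrays. With 1 array per genotype there was no replicate, so no p-value is given, and the arrays are called mutant and control after their labels. Differences are between these 2 arrays, and genotype cannot be told apart from the preparation of each RNA. The error given is the SD over probe sets of 1 gene, which covers probe error and not the spread between embryos. Over the 19273 measured single-gene probe sets the log2 signals of mutant and control had a Pearson correlation of 0.973, as a description across probe sets that are no replicates of each other, and the median log2 ratio was -0.0007 (SD 0.40). The 18 hybridisation spike probe sets averaged a log2 ratio of -0.45, and the 3' over 5' signal of Gapdh was 1.64 on the mutant array and 2.27 on the control array. The part of these technical readings in the ratios below was not tested.

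Of the 14 member probe sets, 11 were measured and 3, all of them for Tbx3, lay under the floor on both arrays. Tbx20 and Tbx3 read lower on the mutant array with every measured probe set, Tbx5 and Tbx18 read higher with every measured probe set, and Tbx1 and Tbx2 differed little. Of the 11 measured probe sets, 6 were higher and 5 lower. At least 2-fold higher were 2 of the 11, 1 for Tbx5 and 1 for Tbx18, while 0.773% of all 19273 measured probe sets were that much higher. At least 2-fold lower were 0 of the 11, against 1.46% of all. In whole numbers, the background held 149 probe sets at least 2-fold higher and 281 lower, or 192 and 235 after quantile normalization.

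**Figure D1:**
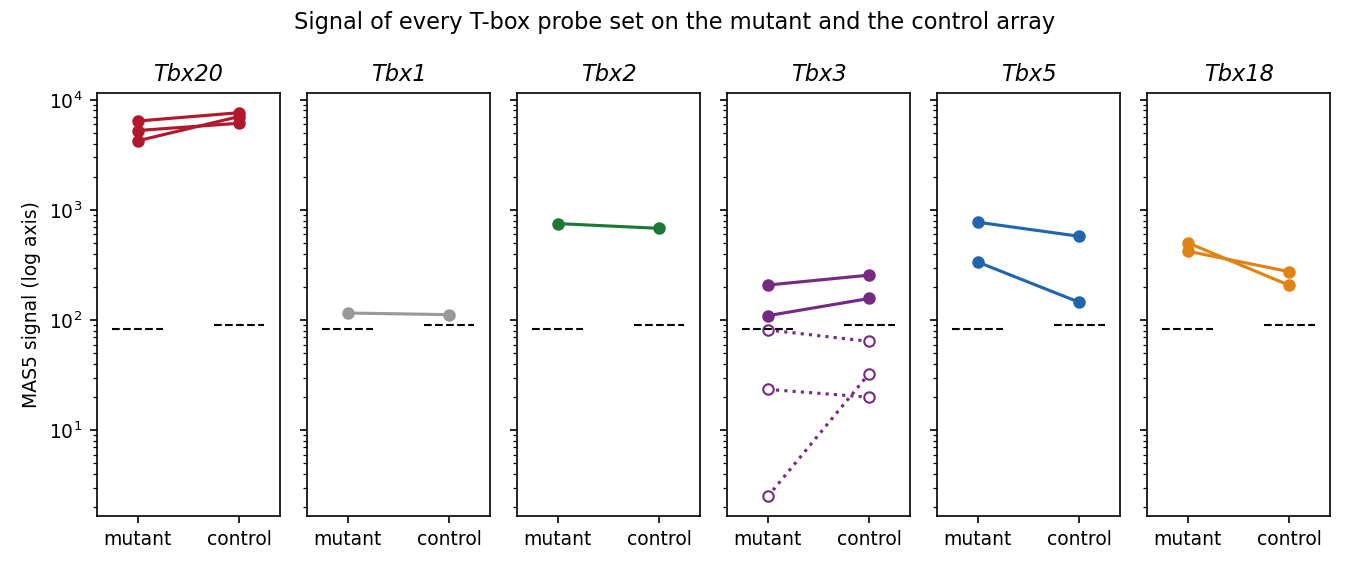
MAS5 signal (log axis) of each of the 14 member probe sets on the mutant array and on the control array, with 1 line per probe set. Dashed marks give the floor of each array, 82.4 and 91.3, and open points with dotted lines are the 3 Tbx3 probe sets under it. The 3 Tbx20 lines lie at 4245 or above on both arrays, and the Tbx5 and Tbx18 lines are higher at the mutant end.

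Tbx20, the gene targeted in this cross, gave strong signal on both arrays. Probe set 1422219_a_at read 6416 in mutant cells and 7638 in control cells. Probe set 1425158_at read 5262 in mutant cells and 6128 in control cells. Probe set 1453351_at read 4245 in mutant cells and 7050 in control cells. All 3 were lower on the mutant array, and there the lowest signal was still 51.5 times the floor. The mean log2 ratio was -0.40 (SD 0.29 over 3 probe sets), a signal 1.32-fold lower. The probe sets did not give the same size of difference: -0.25 and -0.22 for the first pair, against -0.73, or 1.66-fold lower, for 1453351_at. Their range of 0.51 was close to the median range of 0.51 over the 1330 genes with 3 measured probe sets.

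Against probe sets of similar brightness, the first pair of Tbx20 ratios lay within the usual spread. Over the 6500 single-gene probe sets with a mean signal over 1000, the 10th and 90th percentiles of the log2 ratio were -0.35 and 0.35, and probe sets of the same gene differed by an SD of 0.24. Both -0.25 and -0.22 lay inside these percentiles, and -0.73 lay below the lower one. At least 1.5-fold lower was 1 of the 11 member probe sets, 1453351_at, against 7.29% of all measured probe sets. Of the 2140 genes with 3 or more measured probe sets, 6.26% had a lower mean ratio than Tbx20. The annotation ties each of the 3 probe sets to a different sequence record. The deleted exons and the probe positions are not stated in the labels or files, and a probe set outside the deleted part checks nothing about recombination. The null allele and the floxed allele can also give RNA of their other exons, and whether they did was not tested.

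By mean ratio over probe sets, the 4 genes closest to Tbx20 among the 2140 were Ank3 at -0.40, Zfp644 at -0.40, Cox7a2l at -0.41 and Rpf2 at -0.41. This likeness rests on 1 ratio per gene from 2 arrays, and 70 genes lay within 0.05 of Tbx20.

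Tbx18, a factor of the epicardium and of mural cells, had the highest ratio of the members. Probe set 1449871_at read 503 in mutant cells and 207 in control cells, 2.43-fold higher and a log2 ratio of 1.28. Probe set 1429974_at read 423 in mutant cells and 275 in control cells, 1.53-fold higher and a log2 ratio of 0.62. Both Tbx18 probe sets were thus higher on the mutant array, with a mean of 0.95 (SD 0.47 over 2 probe sets). Each lay above the 90th percentile of 0.49 for the 9462 probe sets with a mean signal of 200 to 1000. In that brightness class 0.898% of probe sets were at least 2-fold higher.

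Tbx5, an activator of chamber genes that is also made in the epicardium, was the other member with a probe set past 2-fold. Probe set 1425694_at read 337 in mutant cells and 145 in control cells, 2.31-fold higher and a log2 ratio of 1.21. Probe set 1425695_at read 774 in mutant cells and 577 in control cells, 1.34-fold higher and a log2 ratio of 0.42. The mean was 0.82 (SD 0.56 over 2 probe sets), and the brighter probe set lay inside the 10th to 90th percentile range of its class, -0.50 to 0.49. The annotation names the same sequence record for both Tbx5 probe sets, so they may share a target, and their probe positions are not stated. Their ratios lay 0.79 apart and those of Tbx18 0.66 apart, while the median range over the 3034 genes with 2 measured probe sets was 0.31. The probe sets of both genes thus gave the same direction with a poorly fixed size.

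Having all measured probe sets higher and at least 1 of them by 2-fold was true of Tbx5 and Tbx18, and of 0.908% of the 5174 genes with 2 or more measured probe sets. This criterion was written after the values of both genes had been seen, so it is a description.

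Tbx3, a repressor that keeps conduction tissue from taking on a chamber character, was read by 5 probe sets, most of them dim. Probe set 1448029_at read 208 in mutant cells and 256 in control cells, a log2 ratio of -0.30. Probe set 1439567_at read 110 in mutant cells and 157 in control cells, a log2 ratio of -0.52. Both were lower on the mutant array, at a mean of -0.41 (SD 0.16 over 2 probe sets), and both lay inside the percentile range of their brightness class. All measured probe sets being lower, as for Tbx3 and Tbx20, was true of 22.5% of the 5174 genes with 2 or more. The other Tbx3 probe sets read 81.5, 23.5 and 2.51 in mutant cells, against 64.2, 20.0 and 32.7 in control cells for 1437479_x_at, 1445757_at and 1444594_at in that order. None of these was above the floor on either array, and no ratio is given for them. On the GRCm38.p6 gene table Tbx3 and Tbx5 are direct protein-coding neighbours. Their measured probe sets read in opposite directions, but those of Tbx3 and the brighter one of Tbx5 lay inside the percentile range of their class.

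Tbx2, the repressor of the atrioventricular canal that Tbx20 restrains in mouse myocardium, had 1 probe set. It read 752 in mutant cells and 681 in control cells, a log2 ratio of 0.14. This lay inside the percentile range of its brightness class, where probe sets of the same gene differed by an SD of 0.36. Tbx1, the pharyngeal and outflow tract factor, also had 1 probe set, with 116 in mutant cells and 112 in control cells and a log2 ratio of 0.05. At 1.41 times the floor on the mutant array and 1.23 times on the control array it was the dimmest measured member, in a class where probe sets of the same gene differed by an SD of 0.49. Differences of 0.14 and 0.05 lie under that probe error and were not detectable at these signals.

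**Figure D2:**
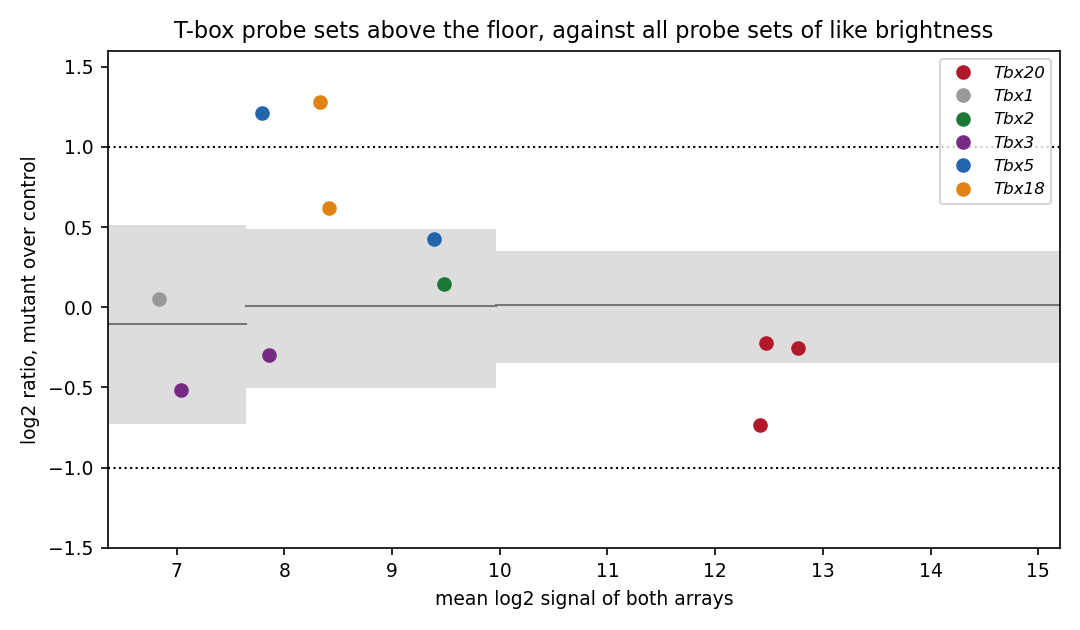
Log2 ratio of mutant over control against the mean log2 signal of both arrays for the 11 measured member probe sets. Grey bands span the 10th to 90th percentiles of all single-gene probe sets with a mean signal under 200, from 200 to 1000 and over 1000, grey lines are their medians, and dotted lines mark 2-fold. Both Tbx18 points, the dimmer Tbx5 point at 1.21 and the lowest Tbx20 point at -0.73 lie outside the bands.

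The rest of the T-box family gave little signal in these cells. Of 9 further family members named on the array, 8 were under the floor on both arrays with their brightest probe set, namely Eomes, Tbr1, Tbx4, Tbx6, Tbx15, Tbx19, Tbx21 and Tbx22. The same was true of 6619 of all 18193 genes. Mga, a large protein that joins a T-box to a Max-binding domain, was the exception. Its brightest probe set read 1096 in mutant cells and 1110 in control cells, a log2 ratio of -0.02, and its 3 measured probe sets ranged between -0.19 and 0.52. T and Tbx10 were named by no single-gene probe set. Tbx4, the protein-coding neighbour of Tbx2 on GRCm38.p6, read 47.2 in mutant cells and 72.2 in control cells with one probe set and 65.4 and 71.7 with the other, all under the floor.

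Partner factors and corepressors of T-box proteins were above the floor on both arrays for 16 of 17 genes listed, against 10649 of all 18193 genes. Each gene here is read by its brightest probe set. Higher were 7 and lower 9, with a median log2 ratio of -0.03. Over all 10649 measured genes, 5226 were higher and 5423 lower, with a median of -0.01. The list median turned to 0.03 after loess and after quantile normalization. At least 2-fold higher were 0 and lower 1, against 0.648% and 1.46% of all measured genes. The one past 2-fold was Tle2, a Groucho-type corepressor, which read 113 in mutant cells and 296 in control cells (-1.39). Tle2 had 1 probe set, with a mean signal under 200, a class where 4.02% of probe sets were at least 2-fold lower. Its relatives Tle4 and Tle3 stood at -0.70 and -0.59, but their measured probe sets reached up to 0.52 and 1.08, so neither has a settled direction. Isl1, a factor of the second heart field, stood at 0.63 by its brightest probe set and at -0.68 by another. Gata4, a partner of Tbx5 and Tbx20, read 6571 in mutant cells and 6269 in control cells (0.07). Casz1, a zinc finger protein that binds Tbx20, read 160 in mutant cells and 163 in control cells (-0.02). Nkx2-5, the homeobox partner of Tbx5, was under the floor on both arrays, at 6.24 in mutant cells and 9.77 in control cells. Gata4 and Casz1 are named beyond the rule for named genes, after their values were seen.

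Of 21 genes on the array that are reported elsewhere as targets of cardiac T-box factors, 13 were measured, 5 higher and 8 lower, with a median log2 ratio of -0.46. Of all 18193 genes, 10649 were measured, and 5423 of these were lower. At least 2-fold lower was 1 of the 13, against 1.46% of all measured genes, and higher 0, against 0.648%. Bmp2, the ligand that patterns the atrioventricular canal, read 142 in mutant cells and 386 in control cells (-1.44). Ndrg1, a gene that TBX2 represses in human cells, was at -0.97, with its measured probe sets between -1.01 and -0.32. Tgfb2, a cushion ligand, was at -0.95, with its measured probe sets between -0.95 and -0.31. Gja5, the gap junction protein that Tbx5 activates and Tbx2 and Tbx3 repress, read 216 in mutant cells and 394 in control cells (-0.87). Nppa, the atrial peptide under the same control, read 482 in mutant cells and 673 in control cells (-0.48) and is named beyond the rule. The list mixes genes that T-box factors activate with genes they repress, so its median gives no direction of T-box activity. The median turned to 0.04 with the floor at the 75th percentile, where 5 genes were left. Fgf8 and Fgf10, targets of Tbx1 in pharyngeal mesoderm, were under the floor on both arrays.

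Markers of epicardium read higher on the mutant array together with Tbx18 and Tbx5. Of 14 epicardial markers, 10 were measured, and by their brightest probe set all 10 were higher, against 49.1% of all measured genes. The list median was 0.74 on the log2 scale. At least 2-fold higher were 2 of the 10, against 0.648% of all measured genes. A further measured probe set of Gpm6a was at -0.12. The list median was 0.41 when each gene took the median of its probe sets, 0.48 with a pseudocount and 0.47 with the floor at the 75th percentile, where 3 genes were left. Their summed signal over the 14 was 10066 in mutant cells and 5871 in control cells. Upk3b, a mesothelial surface protein, read 2961 in mutant cells and 1163 in control cells (1.35). Lrrn4 was at 1.22, and Aldh1a2, the enzyme that makes retinoic acid in epicardium, and Krt8 were both at 0.98. Bnc1 and Upk1b were above the floor on the mutant array only with their brightest probe set, and Msln and Muc16 on neither. The part of epicardial RNA in the Tbx18 and Tbx5 ratios was not tested. In RNA from many cells, a change in the share of a cell type and a change in RNA per cell cannot be told apart.

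Tbx18 is also a mural cell gene, and the part of mural RNA in its ratio was not tested. Markers of smooth muscle and pericytes read in both directions. Of 11, 10 were measured, 4 higher and 6 lower, while 49.1% of all measured genes were higher. The list had a median of -0.10 and a summed signal of 11397 in mutant cells and 13181 in control cells. The median was -0.35 with probe sets of the plain suffix _at, -0.21 as a mean and -0.03 with a pseudocount. Among them Abcc9, a potassium channel subunit of pericytes, read 375 in mutant cells and 904 in control cells (-1.27), with all 3 measured probe sets lower. Cspg4 was at -0.93 and Kcnj8 at -0.85, while Des was at 0.67. Myh11, a defining smooth muscle marker, was under the floor on both arrays.

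Myocardial markers, from the tissue in which Tbx5 and Tbx20 are both strong, gave clear signal on both arrays. Of 16, 15 were measured, 11 higher and 4 lower, while 49.1% of all measured genes were higher. The list had a median of 0.22 and a summed signal of 31263 in mutant cells and 27616 in control cells. The median was 0.08 when each gene took the median of its probe sets. Myl7, an atrial-type myosin light chain, read 6753 in mutant cells and 3811 in control cells (0.83). Tnni3 was at 0.65, Actc1 at 0.62 and Tnnc1 at 0.52, while Tnni1, named beyond the rule, was the lowest at -0.36. Ryr2 was under the floor on both arrays. Myocardial RNA was thus present beside Tbx20 signal on both arrays, and its part in the Tbx20 and Tbx5 signals was not tested.

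The sorted lineage itself was represented by its defining genes. All 12 endothelial and endocardial markers were measured, 8 higher and 4 lower, while 49.1% of all measured genes were higher. The list had a median of 0.10, a mean of -0.03 and a summed signal of 69116 in mutant cells and 66393 in control cells. Cldn5, a tight junction protein, was the widest at -0.70, followed by Vwf at -0.38, Nfatc1 at -0.33 and Npr3 at 0.25. The 5 measured Nfatc1 probe sets ranged between -1.58 and 0.16. Markers of cushion mesenchyme, where Tbx20 is also made, read lower. All 14 were measured, 3 higher and 11 lower, against 49.1% higher among all measured genes. Their median was -0.51 and their summed signal 36903 in mutant cells and 50384 in control cells. At least 2-fold lower were 2 of the 14, against 1.46% of all measured genes, and higher 0, against 0.648%. The 3 higher, named beyond the rule, were Twist2 at 0.35, Msx2 at 0.31 and Hapln1 at 0.08. Among the lower, Scx, a tendon and valve factor, was at -1.35, Msx1 at -1.08, Snai2 at -0.89 and Prrx1 at -0.75. Tbx20 read lower too, at -0.25 by its brightest probe set, which is the measure used for the list, and at -0.40 as a mean. The part of cushion RNA in the Tbx20 ratio was not tested.

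Pharyngeal and second heart field markers, the tissue of Tbx1, gave little signal on either array. Of 7 on the array, 2 were measured, Isl1 and Eya1, and Fgf8, Fgf10, Lhx2, Msc and Six2 were under the floor on both arrays. Of all 18193 genes, 10649 were measured and 6619 were under the floor on both arrays. Blood markers had 4 of 11 measured, 1 higher and 3 lower, while 49.1% of all measured genes were higher. Their median was -0.77 and their summed signal 7768 in mutant cells and 11805 in control cells. The median was -0.25 with probe sets of the plain suffix _at, where 2 genes were left. Alas2, Csf1r and Cx3cr1 were above the floor on the control array only, and Cx3cr1, a macrophage receptor, read 47.8 in mutant cells and 226 in control cells. Ptprc and Itga2b, which encode CD45 and CD41, were under the floor on both arrays. The embryonic globin Hbb-y read 6606 in mutant cells and 9843 in control cells (-0.58). Hbb-bh1 read 98.2 in mutant cells and 197 in control cells (-1.01), Hba-x was at -0.97 and Pf4 at 0.46. Globin genes are close copies of each other, so the globin probe sets are uncertain.

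**Figure D3:**
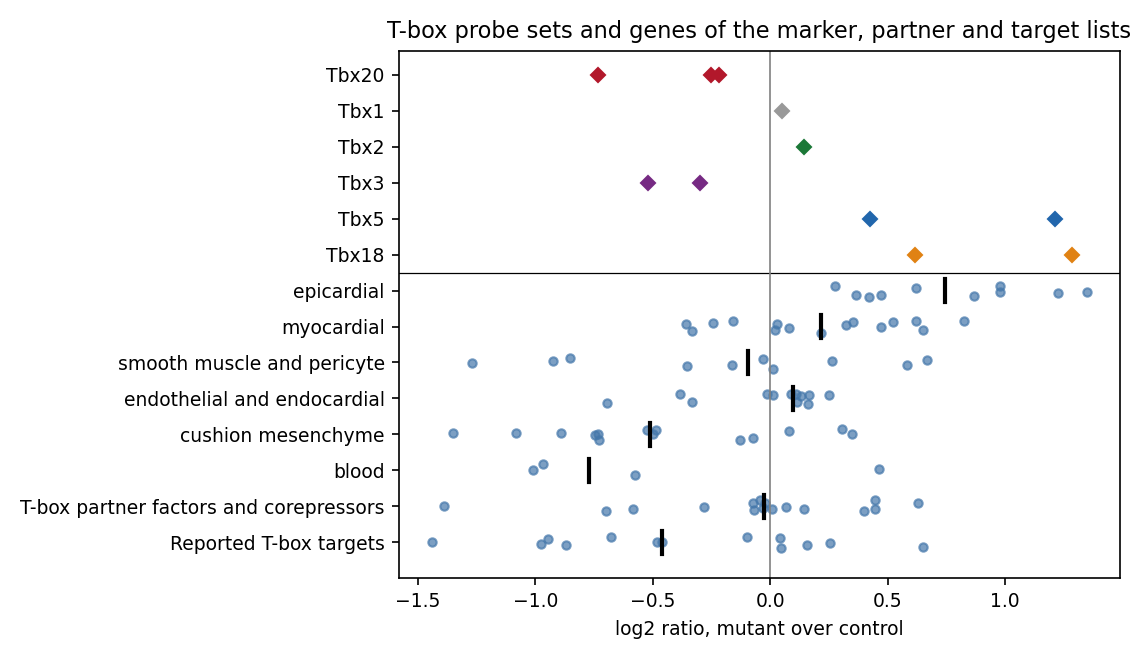
Log2 ratio of mutant over control for the measured probe sets of each member (diamonds, upper rows) and for the measured genes of 8 marker, partner and target lists (circles, 1 per gene, read by the brightest probe set, with small vertical shifts to part them). Black bars are list medians. All 10 epicardial circles and all Tbx5 and Tbx18 diamonds lie above 0, and 11 of 14 cushion circles and all Tbx20 diamonds lie below 0.

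Other processing did not turn the ratios of Tbx20, Tbx2, Tbx3, Tbx5 or Tbx18 where it gave a value. Tbx3 and Tbx18 had none with the floor at the 75th percentile. Median scaling removes only the median of -0.0007, and another floor leaves the ratio of a probe set above it unchanged. Neither could turn a measured member probe set. Over the alternatives run, the log2 ratio lay between -0.48 and -0.25 for Tbx20, between -0.41 and -0.15 for Tbx3, between 0.11 and 0.14 for Tbx2, between 0.42 and 0.84 for Tbx5 and between 0.62 and 0.98 for Tbx18. Some alternatives took the brightest probe set or a median in place of the mean. The ends of -0.25 for Tbx20, 0.42 for Tbx5 and 0.62 for Tbx18 are each the ratio of 1 probe set. The Tbx3 end of -0.15 was the median over all 5 probe sets, 3 of them floored on both arrays. It equals the ratio of the floors and holds no Tbx3 signal. The next Tbx3 value was -0.16, with the floor at the 25th percentile. There 1437479_x_at also counted, with 81.5 in mutant cells and 64.2 in control cells. The Tbx3 probe sets then no longer read in the same direction. Tbx1 lay between -0.04 and 0.19 and so has no settled direction. With a pseudocount in place of the floor, or with the floor at the 75th percentile, 0 member probe sets were at least 2-fold higher.

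**Figure D4:**
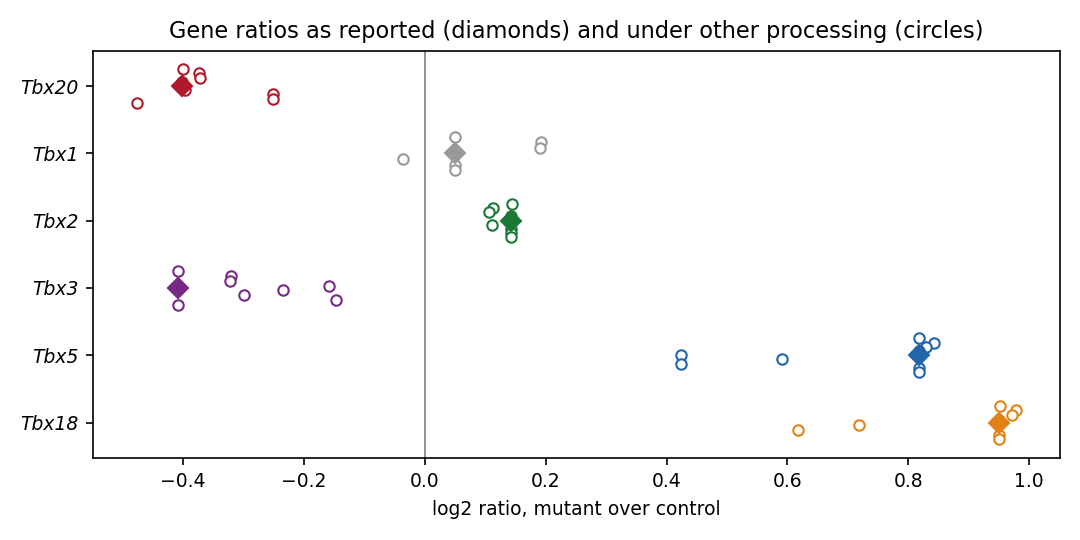
Log2 ratio of mutant over control of each member gene as reported (diamond, mean over measured probe sets) and under each alternative that gave a value (open circles). Circles of Tbx5 and Tbx18 all lie at 0.42 or above, those of Tbx20 and Tbx3 all lie below 0, and those of Tbx1 lie on both sides. The Tbx3 circle at -0.15 is the ratio of the floors and holds no Tbx3 signal.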

How the data were processed

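RNA of sorted cells, 1 sample per genotype, was labelled with biotin and measured on Affymetrix 1-colour arrays, per the labels' protocols. The deposited values are linear intensities, and MAS5 is the method that the submitters' processing notes name. MAS5 joins perfect-match and mismatch probes of a probe set, which leaves dim ratios noisy. A mean trimmed of 2% of signals at either end was 500.003 on both arrays. The software version and genome build are not stated here, and the number of arrays limits the precision.

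Of 45101 probe sets, 64 were array controls, 34945 named 1 gene, 932 several and 9160 none. None of those naming several named a member. Entrez identifiers matched the RefSeq gene table for 34741, and 0 symbols changed. Signals were floored at each array's median and subtracted on the log2 scale, mutant minus control, with Python 3.11.15, pandas 2.3.3 and statsmodels 0.14.6 (loess, span 0.3). A member's ratio is the mean over its measured probe sets, and a listed gene takes its brightest probe set. No test between genotypes was run. Named genes are the members, other T-box genes, up to 4 members of each list with the widest ratios, and 4 genes most like Tbx20. Defining markers under the floor on both arrays are also named and, beyond the rule, listed genes above it on 1 array only. Members and lists were chosen with earlier results of these data known. Alternatives were other scalings, floors, a pseudocount, folds of 1.5 and 3, and other ways to join probe sets. The steps were tested on simulated data. The planted differences were larger than any member ratio and lay in probe sets brighter than those of Tbx18, Tbx3 and Tbx1. Recovery of small or dim ratios was thus not tested. RefSeq promoters (GRCm38.p6) matched 3 of 6 members.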

Additional observations from a re-analysis of the deposited data

How the results depend on the processing

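Of 50 recomputed member gene ratios, 48 moved by less than the SD between probe sets of 1 gene. Many could not move: Tbx1 and Tbx2 each had 1 probe set, and a floor at the 25th percentile added a probe set for Tbx3 only. With an SD of up to 0.49 by brightness class, even the Tbx3 shift from -0.41 to -0.15 was among the 48. This count is thus no measure of robustness. Tbx5 moved to 0.42 with the floor at the 75th percentile and with its brightest probe set, since only 1425695_at then counts. Tbx1 turned to -0.04 with a pseudocount. The 2 member probe sets at least 2-fold higher became 0 with the floor at the 75th percentile, 0 with a pseudocount and 0 at a threshold of 3-fold, and 3 at 1.5-fold, where 1 was lower in place of 0. At the 75th percentile 5 member probe sets were left, and Tbx1, Tbx3 and Tbx18 had no value. Over all single-gene probe sets, 149 were at least 2-fold higher and 281 lower; the counts were 532 and 1140 with the floor at the 25th percentile, 17 and 40 at the 75th, and 31 and 98 with a pseudocount. Of 89 recomputed list medians, 73 moved by less than the SD over the list's genes divided by the square root of their number. A list with 1 measured gene took the largest SD between probe sets of 1 gene. Genes on the same 2 arrays are no replicates, and several alternatives could hardly move a median, so this count is no measure of robustness either. The epicardial median moved by more in 5 of 9 alternatives and ranged between 0.41 and 0.87. The pharyngeal and second heart field median ranged between -0.21 and 0.43 and turned in 3 of 8. The smooth muscle and pericyte median ranged between -0.35 and -0.03, the blood median between -0.83 and -0.25, the cushion median between -0.63 and -0.46 and the myocardial median between 0.08 and 0.32. No paired analysis was possible because each genotype had 1 array. Signal over background limits Tbx1 and Tbx3 most.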
